A study of Homo sapiens with 6 samples.

Results

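The 9 genes described here code for cytochrome P450 (CYP) enzymes that metabolise drugs, toxins, fatty acids and eicosanoids, outside the CYP2C and CYP3A families. They are CYP1A1, CYP1A2, CYP2A6, CYP2B6, CYP2D6, CYP2E1, CYP2J2, CYP4A11 and CYP4F2, and they were chosen by name, with earlier results of these data known. They make up 9 of the 57 protein-coding CYP genes and 9 of the 20033 protein-coding genes of GENCODE release 44. Chromatin binding of UHRF1 through its tandem Tudor domain (TTD) was measured by CIDOP, a ChIP-like pulldown in which a GST-tagged reading domain replaces the antibody. HepG2 cells, an established human hepatoblastoma-derived liver cancer line, were used without a treatment in the labels, and their native mononucleosomes were released with MNase. The libraries comprised 2 TTD CIDOP, 2 H3K9me2 ChIP and 2 input samples. The values below come from 1 list of 31569 broad TTD peaks that the authors called on the mean of both TTD replicates. The list holds peak positions and widths only, so the read depth of each library cannot be read from it, no error between replicates can be given, and liver marker genes could not be read from it. The pulldown reports where the isolated domain bound in 1 cancer cell line, and not where the full-length protein sits in liver.

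Cytochrome P450 enzymes of the liver sit mainly in the endoplasmic reticulum, where they take electrons from the reductase POR and add oxygen to their substrates. Their genes are transcribed under the control of liver factors such as HNF4A and of receptors that respond to foreign compounds, among them the aryl hydrocarbon receptor AHR, PXR (NR1I2) and CAR (NR1I3). The TTD is the part of UHRF1 that binds histone H3 di- or trimethylated at lysine 9, a modification of silent chromatin, and its binding is stronger when the same tail carries H3K4me1, a modification of enhancers and promoter flanks.

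The sequences in front of the genes are shown first for 4 of the genes on which the results turn, to set stretches under a TTD peak beside stretches without one. Each is the 250 bases before the annotated start, read 5′ to 3′ on the strand of the gene from hg38. Capitals mark matches on either strand to GCGTG (the core bound by AHR with ARNT), TATAAA (the TATA box), CCAAT (the CCAAT box), TGTTTAC (a forkhead core) or CAAAG (an HNF4 core). The start of CYP2E1 is given in 2 versions, since the gene record starts 6957 bp before the Ensembl canonical transcript. The stretches of CYP4F2 and the CYP2E1 gene record lie wholly inside a TTD peak, and the other 3 contain no base of one.
CYP1A1, chr15:74725537-74725786, minus strand: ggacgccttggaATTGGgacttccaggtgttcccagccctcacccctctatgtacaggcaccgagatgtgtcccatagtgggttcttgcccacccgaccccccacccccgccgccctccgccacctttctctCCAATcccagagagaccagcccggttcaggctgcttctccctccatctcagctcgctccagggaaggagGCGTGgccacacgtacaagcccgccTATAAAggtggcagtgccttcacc
CYP1A2, chr15:74748595-74748844, plus strand: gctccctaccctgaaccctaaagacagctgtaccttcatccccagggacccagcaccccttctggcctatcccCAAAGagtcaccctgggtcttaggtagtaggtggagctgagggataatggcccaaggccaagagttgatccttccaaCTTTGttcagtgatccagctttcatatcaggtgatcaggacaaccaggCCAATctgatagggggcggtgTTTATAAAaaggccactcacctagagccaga
CYP2E1 gene record, chr10:133520156-133520405, plus strand: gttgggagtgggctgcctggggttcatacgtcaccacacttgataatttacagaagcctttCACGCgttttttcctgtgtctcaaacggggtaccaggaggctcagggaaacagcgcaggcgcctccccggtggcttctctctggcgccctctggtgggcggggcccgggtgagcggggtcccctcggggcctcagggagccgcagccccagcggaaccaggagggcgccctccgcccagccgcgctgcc
CYP2E1 canonical, chr10:133527113-133527362, plus strand: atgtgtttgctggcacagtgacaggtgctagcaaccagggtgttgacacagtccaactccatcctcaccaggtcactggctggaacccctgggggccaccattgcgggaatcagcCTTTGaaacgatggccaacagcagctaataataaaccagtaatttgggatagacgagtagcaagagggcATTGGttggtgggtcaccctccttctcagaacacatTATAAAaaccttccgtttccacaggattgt
CYP4F2, chr19:15898078-15898327, minus strand: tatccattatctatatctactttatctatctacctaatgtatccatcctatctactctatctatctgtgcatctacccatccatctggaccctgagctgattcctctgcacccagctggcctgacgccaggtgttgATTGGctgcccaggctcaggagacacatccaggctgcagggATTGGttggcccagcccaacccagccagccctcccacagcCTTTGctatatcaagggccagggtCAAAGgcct

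Where TTD peaks lay relative to the transcription start site (TSS) differed from gene to gene. Of the 9 genes, 5 (55.6%, 95% Wilson interval 26.7 to 81.1) had a TTD peak within 2.5 kb of the TSS, against 16.9% of all protein-coding genes. These 5 were CYP1A1, CYP2A6, CYP2D6, CYP2E1 and CYP4F2. The TSS was taken as the 5′ end of the gene record. With the canonical transcript instead, CYP2E1 dropped out and the count was 4 of 9 (44.4%, interval 18.9 to 73.3), again against 16.9% of all protein-coding genes. The count was 3 with peaks narrower than the median width left out, against 7.29% of all protein-coding genes. It was also 3 with peaks rich in repeated sequence left out, an alternative chosen after seeing the data. For that alternative there is no value over all protein-coding genes. The intervals cover counting error only, and no test was made, because the list is 1 pooled measurement and neighbouring genes share peaks.

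Peaks inside the genes and in their wider surroundings were closer to what was found for genes in general. A TTD peak touched the gene body of 4 genes (44.4%, interval 18.9 to 73.3), against 34.2% of all protein-coding genes. Within 100 kb of the TSS, 9 of 9 genes had a peak (interval 70.1 to 100%), against 77.9% of all protein-coding genes. The cover of a window, meaning the percent of its bases that lie in TTD peaks, ranged from 0.68% at CYP4A11 to 3.58% at CYP2J2 over these 200 kb. Its median was 2.82%, beside a median of 2% over all protein-coding genes. In the 5 kb around the TSS the median cover was 13.1% for the 9 genes and 0% for all protein-coding genes, and the means were 24.9% and 5.30%. The median of the 9 is the value of CYP2A6, and it was 0% with canonical starts. The median cover of the gene body was 0% in both, and the means were 8.02% for the 9 genes and 3.39% for all protein-coding genes. Over 200 kb the means ran the other way from the medians, at 2.44% for the 9 genes and 3.91% for all protein-coding genes.

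**Figure D1:**
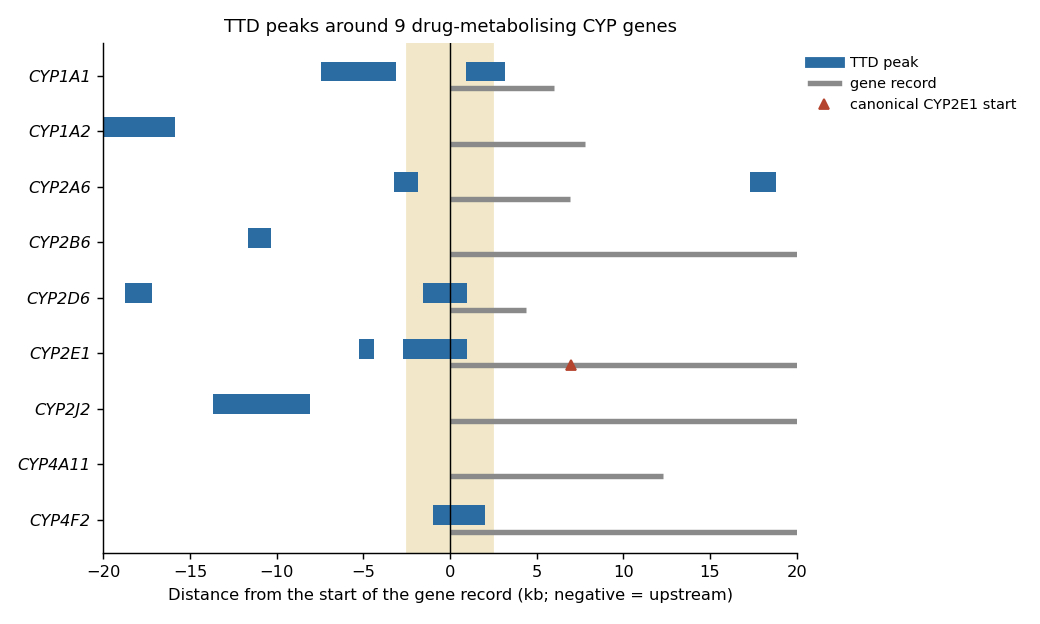
TTD peaks (blue bars) from 20 kb upstream to 20 kb downstream of the TSS of each gene, with the distance from the start of the gene record in kb on the x axis and 1 gene per row. Grey lines are gene records, the shaded band is the TSS window of 5 kb, and the red triangle is the canonical CYP2E1 start. Peaks lie over the starts of CYP2D6, CYP2E1 and CYP4F2, and none is drawn for CYP4A11, whose nearest peak is 93857 bp away.

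**Figure D2:**
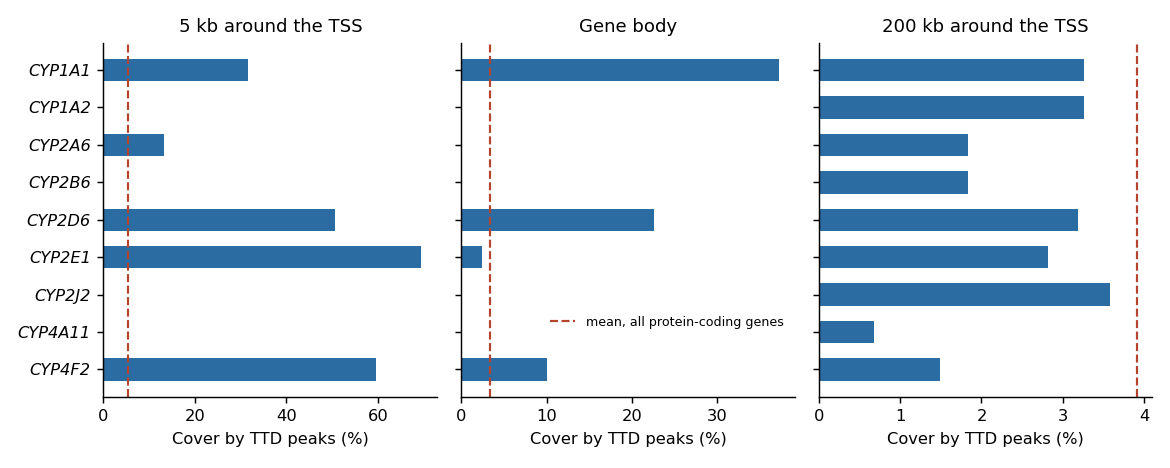
Cover by TTD peaks (percent of bases, x axis) of the 5 kb around the TSS, the gene body and the 200 kb around the TSS for each gene, with 1 bar per gene. The dashed line is the mean over all 20033 protein-coding genes, and each panel has its own scale. Cover at the TSS runs from 0% for 4 genes to 69.5% for CYP2E1, while over 200 kb every bar stays below the mean of 3.91%.

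A TTD peak lay over the TSS itself in 3 genes, CYP2D6, CYP2E1 and CYP4F2. Of all protein-coding genes, 589 (2.94%) had their TSS inside a peak. CYP4F2, a fatty acid and vitamin K omega-hydroxylase that also inactivates leukotriene B4, had starts in the gene record and the canonical transcript that differ by 3 bp, and no run of 100 bases in its peak occurs elsewhere in hg38. The gene (ENSG00000186115.13) spans chr19:15878023-15898077 on the minus strand. Its peak, chr19:15896061-15899040, is 2980 bp wide and reaches from 963 bp upstream to 2016 bp downstream of the TSS. It is the sole TTD peak within 100 kb, and it covered 59.6% of the TSS window, 10.1% of the gene body and 1.49% of the 200 kb. Of its bases, 2017 lie in the gene, 368 of them in exons and 1649 in introns. In the canonical transcript the exonic part was 198 bp of coding sequence and 50 bp of UTR. At least this much of the TSS window was covered in 1.64% of all protein-coding genes.

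CYP2D6, the enzyme that oxidises codeine and many antidepressants and beta blockers, carried a TTD peak on both sides of its start. The gene (ENSG00000100197.23) spans chr22:42126499-42130865 on the minus strand and is 4.37 kb long. Its peak, chr22:42129881-42132410, is 2530 bp wide and runs from 1545 bp upstream to 984 bp downstream. The cover was 50.6% of the TSS window (61.8% upstream and 39.4% downstream of the start) and 22.6% of the gene body. The peak holds 209 bp of the coding sequence and 19 bp of the UTR of the canonical transcript, and upstream it overlaps NDUFA6-DT, a transcript annotated there. Another 3 peaks lay within 100 kb, of 1340, 1570 and 940 bp, and together the 4 peaks covered 3.19% of the 200 kb. The one of 1570 bp, chr22:42148051-42149620, lies over the record start of CYP2D7, the neighbouring CYP2D copy. For CYP2D7 the cover of the TSS window was 31.4%, but its canonical transcript starts 4878 bp further downstream and has its nearest peak 3474 bp upstream.

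Part of the sequence of the CYP2D6 peak occurs at more than 1 place in the genome. Of the 2431 runs of 100 bases in the peak, 636 (26.2%) occur elsewhere in hg38, each within 10 kb of the canonical CYP2D7 start. The peak over the CYP2D7 record start holds no such run. How reads from shared sequence were assigned is not given in the sources used here, and its part in the CYP2D6 value was not tested.

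CYP2E1, which oxidises ethanol and turns paracetamol into its toxic quinone imine, had the largest cover at the TSS of the 9 genes, but the value depends on the start used. The gene record (ENSG00000130649.10) spans chr10:133520406-133561220 on the plus strand. Its start lies in the peak chr10:133517701-133521380, which is 3680 bp wide and reaches from 2705 bp upstream to 974 bp downstream. Peaks covered 69.5% of the TSS window, with 100% of the upstream side and 39.0% of the downstream side, and 1.08% of all protein-coding genes had at least this cover. The gene body was covered to 2.39%. Of the bases of the peak inside the gene record, 155 are exonic and 820 intronic, and none falls in an exon of the canonical transcript.

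The canonical CYP2E1 transcript starts at position 133527363, and there the TSS window and the body held no TTD peak. The nearest peak ended 5983 bp upstream of that start. The canonical stretch printed above contains a TATA box 30 bases before the start, whereas the stretch before the gene record contains none. Base composition differed too, with a CpG observed/expected ratio of 0.641 in the 1 kb around the record start and of 0.403 around the canonical start. A narrower peak of 890 bp lay 4386 to 5275 bp upstream of the record start and another of 1070 bp lay 48116 bp upstream, both inside the record of SCART1, which also overlaps the peak at the start. SCART1 and NDUFA6-DT were named after the values were seen, for their positions alone.

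At CYP1A1, the TTD peaks lay on both sides of the promoter and not on it. CYP1A1 is the classical target of AHR and oxidises polycyclic aromatic hydrocarbons such as benzo[a]pyrene. The gene (ENSG00000140465.15) spans chr15:74719542-74725536 on the minus strand. One peak, chr15:74722391-74724620, of 2230 bp, begins 916 bp downstream of the TSS and lies wholly inside the gene, with 707 bp in coding sequence, 29 bp in UTR and 1494 bp in introns. The other, chr15:74728671-74732970, of 4300 bp, lies 3135 to 7434 bp upstream. The downstream peak covered 31.7% of the TSS window, 63.4% of its downstream side and none of its upstream side. It also covered 37.2% of the gene body, the largest body cover of the 9 genes, which 1.53% of all protein-coding genes reached. The peak is just under the median width of 2250 bp. With narrower peaks left out, the cover of the TSS window and of the gene body was 0%.

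The 4050 bp between the CYP1A1 peaks, which hold the TSS, differ on average in base composition from the peaks themselves. GC content was 59.2% between the peaks, 49.2% in the downstream peak and 53.7% in the upstream one, beside a median of 43.2% over all TTD peaks. CpG sites numbered 41.2 per kb between the peaks, 10.3 per kb in the downstream peak and 19.5 per kb in the upstream peak, beside a median of 8.83 per kb. The CpG sites were not spread evenly. They were densest in the 250 bases that begin 1000 bp upstream, with 25 CpG sites, and no CpG site lay between 27 bp upstream and 1781 bp downstream of the TSS. This distance of 1808 bp was reached by 63 of 906018 pairs of neighbouring CpG sites on chromosome 15. Inside the upstream peak, the windows of 250 bases that begin 3750 and 3500 bp upstream held 22 and 20 CpG sites. The window that begins 2750 bp upstream, between the peaks, held 1. CpG density thus did not divide at the edge of the upstream peak.

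GCGTG, the AHR and ARNT core, contains a CpG site, so its counts are not independent of the CpG counts above. Between the CYP1A1 peaks it occurred 14 times, or 3.46 times per kb, in each case upstream of the TSS. The stretch without CpG sites, from 27 bp upstream to 1781 bp downstream of the TSS, could hold no core. It reaches into the downstream peak. The downstream peak held 0 and the upstream peak 2 (0.465 per kb), beside a median of 0.422 per kb over all TTD peaks. Over the whole stretch of 10580 bp, no 200 bases held more than 3 copies, and 1 of several windows with 3 is printed here, chosen after the values were seen. They lie 1004 to 1203 bp upstream of the TSS, contain their copies in capitals, and have 0 bases in a TTD peak.
CYP1A1 upstream, chr15:74726540-74726739, minus strand: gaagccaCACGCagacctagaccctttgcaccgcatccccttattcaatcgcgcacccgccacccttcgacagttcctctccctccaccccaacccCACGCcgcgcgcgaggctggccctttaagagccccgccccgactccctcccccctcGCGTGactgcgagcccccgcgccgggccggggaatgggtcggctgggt
The cores are letters in the genome, and whether AHR was bound at any of them was not measured here.

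**Figure D3:**
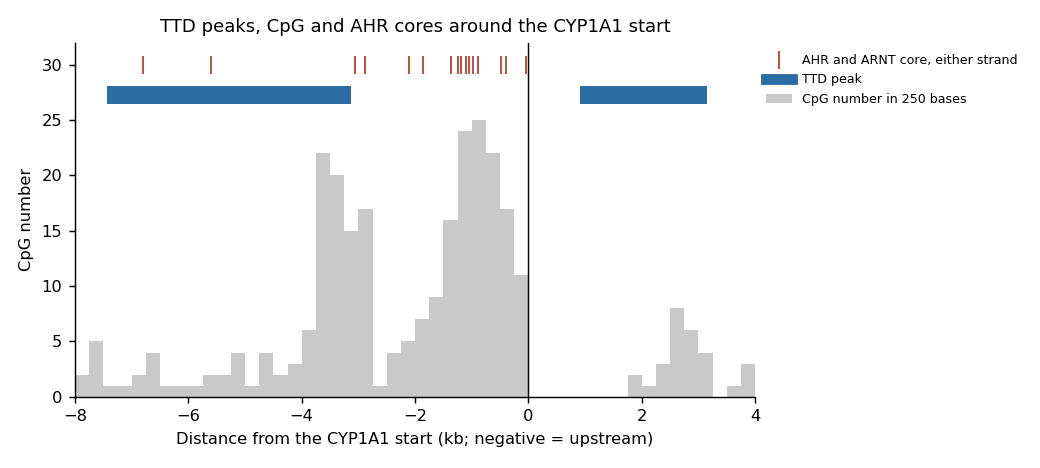
TTD peaks (blue), AHR and ARNT cores on either strand (red ticks) and the CpG number in adjoining windows of 250 bases (grey bars, y axis) against the distance from the CYP1A1 start in kb. Of the 16 cores drawn between the far ends of both peaks, 14 lie between the peaks and 2 in the upstream peak, and the bars are at 0 from the start to beyond 1.5 kb downstream.

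CYP1A2, the caffeine-oxidising neighbour of CYP1A1, had no peak within 2.5 kb of its TSS and none in its body. It spans chr15:74748845-74756607 on the plus strand, and its TSS and that of CYP1A1 are 23309 bp apart with the genes pointing away from each other. The same 2 peaks were the TTD peaks within 100 kb of either gene, so both had a cover of 3.27% over 200 kb. Seen from CYP1A2, the nearer peak ended 15875 bp upstream. The pair thus shared their surroundings, and both had 0 bases of a peak in the 250 bases before the start, while CYP1A1 alone of the 2 had a peak in the gene. Neither EDC3 nor CSK, the next protein-coding genes on either side of the pair, had a TTD peak within 2.5 kb of the TSS.

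CYP2A6, which clears nicotine, had a TTD peak upstream of its promoter. The gene (ENSG00000255974.8) spans chr19:40843541-40850447 on the minus strand. Its nearest peak, chr19:40852291-40853710, of 1420 bp, lies 1844 to 3263 bp upstream, and the part that fell in the TSS window covered 13.1% of it. The body contained no peak. Its 3 peaks within 100 kb were 1420, 1500 and 750 bp wide, and each was narrower than the median peak of 2250 bp. The peak of 750 bp lies 1739 bp upstream of CYP2A7, the neighbouring copy of CYP2A6, whose TSS window was covered to 15%. From the canonical CYP2A7 start, 521 bp away, the peak lay 2260 bp upstream and the cover was 4.82%.

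Part of the sequence upstream of CYP2A6 is also found upstream of CYP2A7. Of the 1321 runs of 100 bases in the CYP2A6 peak, 720 (54.5%) occur elsewhere in hg38. In the peak upstream of CYP2A7 the share was 53.5% of 651 runs, and the 2 peaks had 348 runs in common. The part of this shared sequence in either value was not tested.

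CYP2B6, which metabolises bupropion and efavirenz and is induced through CAR, lies in the same CYP2 cluster of chromosome 19, its TSS 140835 bp from that of CYP2A6. It spans chr19:40991282-41018398 on the plus strand. No peak lay within 2.5 kb of its TSS or in its 27.1 kb. Its nearest peak, of 1320 bp, ended 10332 bp upstream and another of 2340 bp ended 26832 bp upstream, and these 2 peaks covered 1.83% of the 200 kb. Neither of these peaks held a run of 100 bases found elsewhere. No peak was found within 2.5 kb of the TSS of CYP2A13, the next protein-coding gene downstream.

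CYP2J2, which epoxidises arachidonic acid and is also strongly expressed in heart, had a wide TTD peak upstream and a narrower one downstream. It spans chr1:59893308-59926773 on the minus strand. The peak, chr1:59934871-59940450, is 5580 bp wide, the widest near any of the 9 genes, and 89.3% of all TTD peaks are no wider. It begins 8098 bp upstream of the TSS. With a peak of 1580 bp inside HOOK1, the next gene downstream, it gave a cover of 3.58% over 200 kb. HOOK1 itself had a peak within 2.5 kb of its TSS, with a cover of 3.52%. The TSS window and the body were free of peaks.

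CYP4A11, a fatty acid omega-hydroxylase controlled by PPARA, was the gene farthest from TTD peaks. It spans chr1:46929177-46941484 on the minus strand. Its 1 peak within 100 kb, of 1360 bp, lies 93857 bp upstream inside CYP4X1, and covered 0.68% of the 200 kb. Of all protein-coding genes, 76.6% had a peak at least as near. For the other 8 genes the nearest peak was closer than 30355 bp, the median over all protein-coding genes, and the median over the 9 genes was 1844 bp. Apart from the 3 genes with a peak over the start, the nearest peak was upstream in 5 genes and downstream in 1, CYP1A1. The nearest peak of CYP1A2 is also the upstream peak of CYP1A1. No share of all protein-coding genes by side is given here, so these counts show no tendency to either side.

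**Figure D4:**
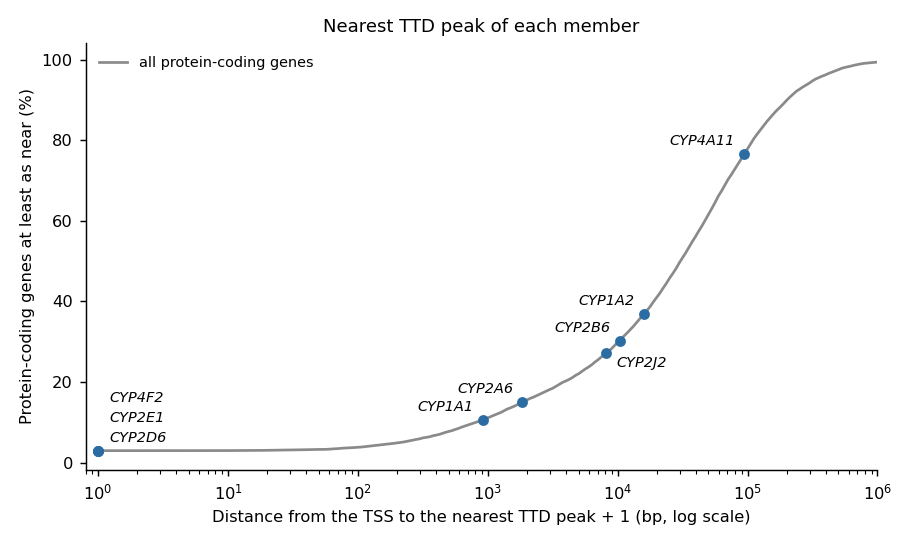
Distance from the TSS to the nearest TTD peak plus 1 bp (x axis, log scale) against the percent of all protein-coding genes with a peak at least as near (y axis). The grey curve is for all protein-coding genes and each blue point is 1 of the 9 genes. CYP2D6, CYP2E1 and CYP4F2 sit at distance 0, and CYP4A11 is the one point beyond the median of 30355 bp.

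The peaks near these genes were mostly short. Within 100 kb of the 9 starts lay 18 distinct peaks, 2 of them shared by CYP1A1 and CYP1A2. They were 750 to 5580 bp wide with a median of 1535 bp, and 6 were at or above the median of 2250 bp of the whole list. Their chromosomes were cut into successive stretches of 200 kb for comparison, and 15.7% (CYP2D6) to 55.3% (CYP4A11) of the stretches on the same chromosome were covered at least as much as the surroundings of the gene. The cover of whole chromosomes was 1.26% for chromosome 19, 1.62% for chromosome 22, 2.25% for chromosome 15, 3.08% for chromosome 1 and 3.17% for chromosome 10. CYP1A1, CYP1A2, CYP2A6, CYP2B6, CYP2D6, CYP2J2 and CYP4F2 thus had more cover in their 200 kb than their chromosome, and CYP2E1 and CYP4A11 less. Unknown bases of hg38, where no peak can be called, were kept in the stretches and in the chromosome lengths. This lowers both the shares and the chromosome covers.

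The CpG content at the starts varied among the 9 genes. The CpG observed/expected ratio in the 1 kb around the TSS was lowest at CYP1A2 (0.0953) and highest at CYP2E1 (0.641) and CYP2J2 (0.629). All 9 values were below the median of 0.688 over all protein-coding genes. Over all protein-coding genes this median was 0.712 with a TTD peak within 2.5 kb and 0.68 without. Among the 9 genes, CYP4F2, with a peak over the start, and CYP4A11, without one near, had the same ratio of 0.134. In the 250 bases before the start, TATAAA was present in 5 of 9 genes against 10% of all 20032 promoters read. GCGTG was present in 4 (36.5% of all), CCAAT in 4 (33.3%), CAAAG in 5 (40.5%) and TGTTTAC in 0 (2.43%). In CYP1A2 the TATAAA overlaps a copy on the other strand. Of the 5 genes with TATAAA, CYP1A1, CYP2A6 and CYP2D6 had a TTD peak within 2.5 kb of the TSS, and CYP1A2 and CYP2B6 did not.

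Other CYP genes were read for cover at the TSS and over the surroundings. Of the 8 genes of the CYP2C and CYP3A clusters, 6 (75%) had a TTD peak within 2.5 kb of the TSS, against 16.9% of all protein-coding genes, and their median cover there was 39.9%, with the largest values at CYP3A7 (78.8%), CYP3A43 (73.2%) and CYP3A5 (56.1%). Over 200 kb the median was 16.3% in these clusters, against the 2.82% of the 9 genes. Cover at the record starts of CYP2E1, CYP4F2 and CYP2D6 was thus within the range of the CYP3A genes, where the surroundings were covered to at least 22.05%. Of a list of 14 related or neighbouring CYP genes, which leaves out CYP2D7, 2 (14.3%) had a peak within 2.5 kb of the TSS. These were CYP4F3, with a cover of 48.9%, and CYP2A7, with 15%. Over all 57 CYP genes the count was 22 (38.6%), and over the 48 outside this set it was 17 (35.4%), and with canonical starts the count over all 57 was 20 (35.1%). Ordered by cover at the TSS among the 57, CYP2E1 was at place 6, CYP4F2 at 7, CYP2D6 at 10, CYP1A1 at 15 and CYP2A6 at 20. The place of CYP2E1 holds for the start of its gene record, and at its canonical start the cover was 0%. These differences were not tested, since clustered genes share peaks.

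Of 10 receptors and factors that control such genes, 3 (30%) had a TTD peak within 2.5 kb of the TSS, against 16.9% of all protein-coding genes. NR1I2, the receptor PXR, had its TSS inside a peak and a cover of 66.3%. CEBPA, a liver-enriched factor, had 15.9%, and at HNF4A a peak reached into the edge of the window with 0.840%. With canonical starts AHR was added at 39.4%, which made 4 of 10.

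**Figure D5:**
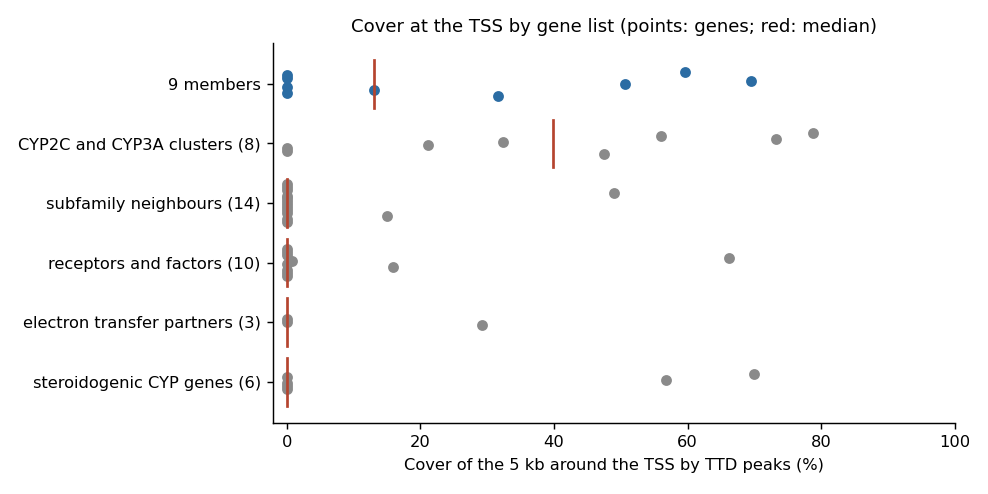
Cover of the 5 kb around the TSS by TTD peaks (percent, x axis) for the 9 genes (blue) and for 5 other lists of genes (grey), with 1 point per gene and the number of genes in parentheses. The red line is the median of each list. It stands at 13.1% for the 9 genes, at 39.9% for the CYP2C and CYP3A clusters and at 0% for the other 4 lists.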

How the data were processed

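The deposited file lists TTD peaks by chromosome, start, end and width in bp, pooled over 2 replicates. To make it, the authors trimmed reads with Trimmomatic 0.38, checked them with FastQC 0.72, mapped them to hg38 with HISAT2 2.2.1 and computed RPKM in bins with deepTools 3.3.2. MACS2 2.1.1 then called broad peaks on the mean signal of the replicates. Blacklisted regions were taken out and the list was curated by hand. No input or copy number correction of the peaks is given in the sources used here. The H3K9me2 and input libraries were not analysed here.

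From the list, peaks and cover were computed over gene records of GENCODE release 44 on hg38, the 5 kb and the 200 kb around the TSS. A gene counted as having a peak when at least 1 base overlapped. Sequence was read from hg38, and some promoter sequences are not reported here. Procedures were checked on simulated intervals. The comparison lists, like the 9 genes, were chosen with earlier results of these data known. Of the lists, values are given for genes with a peak within 2.5 kb of the TSS (for AHR of its canonical TSS), at most the 5 with the largest cover, besides POR and the next protein-coding gene on each side. Alternatives were canonical starts, wider peaks, other windows and overlap rules, 1 value per locus, and, added after the data were seen, peaks without repeated sequence. Python 3.11.15, numpy 2.4.6, pandas 2.3.3, scipy 1.17.1, pysam 0.24.0 and matplotlib 3.10.9 were used.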

Additional observations from a re-analysis of the deposited data

How the results depend on the processing

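No paired analysis was possible because the peaks were called on the mean of both replicates, and for the same reason no replicate could be left out. Of 33 recomputed counts and medians, 23 stayed within 1.5 times of their value. A value of 0 that stayed at 0 counted among these, although leaving out peaks could not lower it. With peaks narrower than the median width left out, 3 genes had a peak within 2.5 kb of the TSS (7.29% of all protein-coding genes), the median cover was 0% at the TSS and 1.49% over 200 kb (1.21% over all protein-coding genes), and CYP1A1 and CYP2A6 lost their TSS peak. The median cover at the TSS was also 0% with canonical starts and with 1 kb on each side of the TSS. With the peak midpoint, or at least 50% of the peak, required inside the gene, 2 genes had a peak in the body (32.5% of all protein-coding genes under either rule). With 1 value for each of 7 loci the median body cover was 2.39%. An alternative added after seeing the data left out peaks in which over 25% of the runs of 100 bases occur elsewhere. CYP2A6 (54.5% of runs) and CYP2D6 (26.2%) then lost their TSS peak. With this, 3 genes had a TSS peak and the median cover at the TSS was 0%. Repeated sequence was counted near the 9 genes alone, so this count has no value over all protein-coding genes beside it. Of the 36 values of single genes, 14 moved with the wider peaks and 3 with canonical starts, all 3 of CYP2E1. Here too, covers that stayed at 0 counted as not moved.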

Other observations

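CYP genes of steroid hormone synthesis, which act mainly in adrenal and gonads, were read in the same way. Of 6 such genes, 2 (33.3%) had a peak within 2.5 kb of the TSS, against 16.9% of all protein-coding genes. In both the TSS lay inside the peak, as in 2.94% of all protein-coding genes. CYP21A2, the adrenal 21-hydroxylase, had a cover of 69.9% in the 5 kb around the TSS, and CYP17A1, the 17-hydroxylase and lyase, had 56.8%. Sequence repeated elsewhere in the genome was not counted at either gene. The median over the 6 genes was 0% at the TSS and 5.60% over 200 kb.

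Of 3 genes for electron transfer to CYP enzymes, 1 (33.3%) had a peak within 2.5 kb of the TSS, against 16.9% of all protein-coding genes. This was CYB5A, cytochrome b5, with a cover of 29.2%. The reductase POR, for which values are given after they were seen, had no peak within 100 kb, and its nearest peak was 126210 bp away.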
